A study of Mus musculus with 8 samples.

Results

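Mouse endometrial cancer models that carry an alteration of phosphoinositide 3-kinase (PI3K) were compared with models that do not, 4 RNA-seq libraries against 4. The altered side held 2 libraries of TPMPik3ca and 2 of TPMPik3r1, and the unaltered side held 2 of TPK and 2 of TPM, which together are all 8 libraries of the series. Genes were singled out where all 4 libraries of one side lay above all 4 of the other, and such genes are called separated below. Of 14677 genes with enough counts to be tested, 3730 were separated.

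All 4 models began as organoids from the uterus of CAG-Cas9-EGFP mice, in which Cas9 is expressed from a ubiquitous promoter, and all received an sgRNA against Trp53 among other edits that are not all described here. TPM, TPMPik3ca and TPMPik3r1 also overexpressed Myc, and TPK did not. TPMPik3ca further carried a retroviral Pik3ca cDNA with the E545K change, and TPMPik3r1 an sgRNA against Pik3r1. The edited organoids had been transplanted into the uterus of nude mice, which lack a thymus and most T cells but keep B cells, NK cells and myeloid cells. The study's methods describe RNA from the resulting tumors, whereas the sample labels name tumor organoids of nude mouse origin. The CAG-Cas9-EGFP mice were females of 8 to 10 weeks and the nude recipients females of 8 weeks, and tumors were collected about 2 months after transplantation.

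PI3K is a lipid kinase that acts below growth factor receptors. Its catalytic subunit p110 alpha is encoded by Pik3ca, and its regulatory subunit p85 alpha, encoded by Pik3r1, both stabilizes and restrains it. Its lipid product recruits the kinase AKT, which holds FOXO transcription factors out of the nucleus and activates mTORC1, a driver of protein, lipid and nucleotide synthesis. PI3K genes are among those most often mutated in endometrial cancer, a tumor of the uterine epithelium.

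The sgRNA that marks TPMPik3r1 is shown because it defines that altered model. Its target site lies on the plus strand of GRCm38 at chr13:101690544-101690562, inside exon 8 of the main Pik3r1 transcript and within the coding sequence. The gene itself runs on the minus strand. In the GENCODE transcripts of that build the 19 bases matched Pik3r1 and no other gene. The 3 bases in capitals are the PAM.
Pik3r1 sgRNA: ttggctacagtagtgggctTGG

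The libraries held 15748396 to 26943611 counts, the most in replicate 1 of TPMPik3r1, and 3 counts, taken as the floor, equaled 0.116 to 0.197 CPM. CPM give a gene's share of the counts of a library, scaled by the TMM factors of edgeR, and limits from counts cover counting error only. Root-mean-square distances on log2 CPM averaged 1.09 between replicates of a model, 1.24 between the models of a side and 2.06 between the sides. Replicate 1 of TPMPik3r1 was 1.56 from replicate 2 and 1.81 and 1.79 from the TPMPik3ca libraries. The other altered libraries were 1.04 to 1.07 apart, and the smallest distance between the sides was 1.81. Although the labels name organoids, fibroblast, macrophage and endothelial genes were present in all 8 libraries. Epithelial genes, which define the labelled tissue, were low throughout the altered side, with values given further on. Replicate 1 of TPMPik3r1 also stood apart by genes of steroid synthesis, and where it decides a call the value without it is given. The 2 libraries of a model stand for 2 mice with tumors of that model, and the 4 libraries of a side came from 2 models. Where no other fit is named, the p-values below set the difference between the sides against the spread among the libraries of a side. That spread mixes the mice of a model with the 2 models of a side. Libraries that share a model are treated as independent. With 4 against 4 libraries a permutation of single libraries could reach a two-sided p of 0.0286, whereas a permutation of models could not go below 0.333.

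Separation ran in both directions. All 4 altered libraries lay above the others for 1575 genes (10.7% of those tested) and below them for 2155 (14.7%). By edgeR's quasi-likelihood test at an adjusted p under 0.05, 1036 genes were higher (7.06%) and 1587 lower (10.8%) with the PI3K alteration, and 94.2% of these 2623 genes were also separated, 921 above (6.28%) and 1549 below (10.6%). On unscaled counts 2028 genes lay above and 1575 below. Both readings use the same values, so the one is no support for the other. The gene lists below were chosen with earlier results of these data known, so their shares are descriptions only. The higher genes numbered 449 without TPM replicate 1, 458 without TPK replicate 2, 487 without TPK replicate 1, 529 without TPMPik3r1 replicate 2 and 1641 without TPMPik3r1 replicate 1, and the lower genes 1095 to 2241 without any 1 library. Without the model TPK 107 were higher and 670 lower. The lower genes differed by more. The nearest libraries of the sides were at least 10-fold apart for 349 genes below and 6 genes above. At the edge of the rule, Cnbp and Cnot2 were just inside, with nearest libraries at ratios of 1.00001 and 1.00003, and Cdc20 and Zfp384 were just outside, at 0.999908 and 0.9995.

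The altered genes themselves were measured first. Pik3ca (GRCm38 chr3:32397671-32468486) was at 65.6 and 79.7 CPM in TPK, 76.8 and 60.9 CPM in TPM, 89.2 and 85.7 CPM in TPMPik3ca and 70.3 and 73.8 CPM in TPMPik3r1. Both TPMPik3ca libraries lay above the other 6, but counts do not tell the cDNA from the endogenous gene, and the sides were not called different (log2 fold change 0.17 ± 0.16 (SE), adjusted p = 0.498). Pik3r1 was at 156 and 155 CPM in TPK, 99.99 and 188 CPM in TPM, 77.5 and 83.3 CPM in TPMPik3ca and 101 and 51.8 CPM in TPMPik3r1. It was lower on the altered side (log2 fold change -0.94 ± 0.26 (SE), adjusted p = 0.0416) with TPM replicate 1 and TPMPik3r1 replicate 1 overlapping, and the TPMPik3ca libraries, where it was not targeted, were within the range of those of TPMPik3r1. An edited transcript can still be counted, so these levels do not measure the edit. With a term for each model the adjusted p was 0.0679, and with a replicate block 0.0678. Myc ranged from 92.3 to 1767 CPM in the unaltered and 333 to 3051 CPM in the altered libraries and Trp53 from 36.7 to 131 CPM in the unaltered and 33.3 to 77.9 CPM in the altered libraries, with adjusted p = 0.68 and 0.609, and the sign of both depended on which model was included.

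Few other genes of the PI3K pathway were called. Of 33 genes of the class I PI3K and AKT axis, 2 were higher and 1 lower, which is 6.06% and 3.03% beside 7.06% and 10.8% of all genes tested. Gab2, a docking protein that brings PI3K to activated receptors, was at 17.3 and 16.5 CPM in TPK, 14.6 and 17.4 CPM in TPM, 42.9 and 34.3 CPM in TPMPik3ca and 86.6 and 38.1 CPM in TPMPik3r1 (log2 fold change 1.62 ± 0.32 (SE), adjusted p = 0.0115). All 4 altered libraries lay above the others. Irs2, the insulin receptor substrate, was at 8.16 and 4.72 CPM in TPK, 9.85 and 6.98 CPM in TPM, 81.9 and 79.5 CPM in TPMPik3ca and 2.95 and 41.3 CPM in TPMPik3r1 (log2 fold change 2.79 ± 0.82 (SE), adjusted p = 0.0494). Replicate 1 of TPMPik3r1 was the lowest of all 8 for Irs2, and the call was lost without TPK replicate 1, TPK replicate 2, TPM replicate 1, TPM replicate 2, TPMPik3ca replicate 1, TPMPik3ca replicate 2 or TPMPik3r1 replicate 2 (adjusted p = 0.085 to 0.126). With a term for each model its adjusted p was 0.0589. Of the kinases themselves, Akt1 was at 179.7 to 272 CPM in the unaltered and 244 to 439.6 CPM in the altered libraries (adjusted p = 0.223) and Mtor at 53.6 to 82.9 CPM in the unaltered and 66 to 222 CPM in the altered libraries (adjusted p = 0.303). Higher genes of the axis numbered 1 without TPK replicate 1, TPK replicate 2, TPM replicate 1, TPM replicate 2 or TPMPik3r1 replicate 2. The call for Pik3r1, the lower one, was lost without TPK replicate 1, TPK replicate 2, TPM replicate 2, TPMPik3ca replicate 1, TPMPik3ca replicate 2 or TPMPik3r1 replicate 2 (adjusted p = 0.0747 to 0.0941).

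FOXO factors activate genes of nutrient sensing and cell death when AKT is inactive. Of 26 FOXO-responsive genes tested, 6 were higher and 3 lower, which is 23.1% and 11.5% beside 7.06% and 10.8% of all genes, with a median log2 fold change of 0.46 beside 0.06 for all genes tested. Cited2, a transcriptional co-regulator, was at 63.5 and 78.8 CPM in TPK, 63.3 and 57.4 CPM in TPM, 147 and 101 CPM in TPMPik3ca and 139 and 147 CPM in TPMPik3r1 (log2 fold change 1.02 ± 0.18 (SE), adjusted p = 0.00796). Sesn3, a sestrin that restrains mTORC1, was at 17.8 to 20.3 CPM in the unaltered and 25.7 to 60.8 CPM in the altered libraries (log2 fold change 1.26 ± 0.28 (SE), adjusted p = 0.0176). Cat, which encodes catalase, the receptor gene Erbb3 and the death ligand gene Tnfsf10 fell, the last from levels of 41.4 to 129 CPM to levels of 0.0628 to 5.38 CPM (log2 fold change -5.01 ± 0.95 (SE), adjusted p = 0.00949). The sides did not overlap for Cited2, Sesn3 or Tnfsf10, and the call for Sesn3 was lost without TPK replicate 1 or TPM replicate 1 (adjusted p = 0.0501 to 0.0555). Higher genes numbered 1 without TPK replicate 1 or TPM replicate 1, 2 without TPK replicate 2 or TPMPik3r1 replicate 2 and 3 without TPM replicate 2.

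The gap is the ratio of the nearest libraries of the sides, and the 12 widest were taken in each direction among genes that were called, separated and at 5 CPM or more throughout the higher side. The 12 genes above the unaltered side were at 20.7 CPM or less there, and at 5.78 CPM or more in every altered library. Agt, which encodes angiotensinogen (GRCm38 chr8:124556534-124569706), was at 1.29 and 0.197 CPM in TPK, 1.39 and 0.801 CPM in TPM, 87.9 and 60.5 CPM in TPMPik3ca and 3975 and 201 CPM in TPMPik3r1. All 4 altered libraries lay at least 43.5-fold above the others, and TPMPik3r1 replicate 1 was far above the rest (log2 fold change 10.18 ± 1.89 (SE), adjusted p = 0.00878). Without that library the log2 fold change was 6.95 (adjusted p = 0.000849). The call for Agt was lost without the model TPK (adjusted p = 0.118) or TPM (adjusted p = 0.0903). Rragb (GRCm38 chrX:153139981-153171943) encodes RagB, a small GTPase that brings mTORC1 to the lysosome in response to amino acids. It was at 0.113 and 0 CPM in TPK, 0.121 and 0.229 CPM in TPM, 8.42 and 6.87 CPM in TPMPik3ca and 6.2 and 12.8 CPM in TPMPik3r1. The unaltered libraries held 8 counts in all, and the gap was 27.1-fold (log2 fold change 6.11 ± 0.76 (SE), adjusted p = 0.00171).

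Transcription factor genes and a cell cycle inhibitor followed. Zbtb16, encoding the zinc finger repressor PLZF, was at 0.901 and 0.525 CPM in TPK, 0.242 and 0.515 CPM in TPM, 34.4 and 29.5 CPM in TPMPik3ca and 129.7 and 19.4 CPM in TPMPik3r1 (log2 fold change 6.59 ± 0.80 (SE), adjusted p = 0.0016). Zbtb20, another zinc finger repressor gene, was at 1.24 and 0.853 CPM in TPK, 1.39 and 0.458 CPM in TPM, 7.29 and 10.8 CPM in TPMPik3ca and 8.53 and 12.8 CPM in TPMPik3r1 (log2 fold change 3.31 ± 0.46 (SE), adjusted p = 0.00273). The sides did not overlap for either, as the rule required. Cdkn1c, which encodes the cyclin-dependent kinase inhibitor p57, was at 6.19 and 11.1 CPM in TPK, 9.06 and 18.1 CPM in TPM, 1166 and 2312 CPM in TPMPik3ca and 106 and 95 CPM in TPMPik3r1 (log2 fold change 6.37 ± 1.20 (SE), adjusted p = 0.00933). The TPMPik3ca libraries were the highest for Cdkn1c, about an order of magnitude above TPMPik3r1. The call for Cdkn1c was lost without either unaltered model.

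The other genes of the 12 with the widest gaps had varied roles. Slc6a15, a transporter of branched-chain amino acids, was at 0 and 0 CPM in TPK, 0.846 and 0.687 CPM in TPM, 44 and 24.2 CPM in TPMPik3ca and 17.3 and 53.5 CPM in TPMPik3r1 (log2 fold change 6.47 ± 1.17 (SE), adjusted p = 0.00785). Fign, a microtubule-severing ATPase gene, was at 1.52 and 0.197 CPM in TPK, 0.0604 and 0.172 CPM in TPM, 21.3 and 28.7 CPM in TPMPik3ca and 51 and 33 CPM in TPMPik3r1 (log2 fold change 6.07 ± 0.95 (SE), adjusted p = 0.00441). The secreted glycoprotein gene Stc1 was at 3.43 and 1.31 CPM in TPK, 12 and 8.98 CPM in TPM, 66.2 and 83.4 CPM in TPMPik3ca and 64.3 and 159.8 CPM in TPMPik3r1 (log2 fold change 3.86 ± 0.69 (SE), adjusted p = 0.00774). The sides did not overlap for any of the 3, as the rule required. TPMPik3r1 was above TPMPik3ca for Fign, with no such order for the others. Atp6v0e2, a subunit of the proton pump of lysosomes, ran from 1.72 to 4.22 CPM in the unaltered and 21.1 to 61.5 CPM in the altered libraries (log2 fold change 3.87 ± 0.46 (SE), adjusted p = 0.00142), and Ogn, a small leucine-rich proteoglycan of the matrix, from 6.03 to 20.7 CPM in the unaltered and 103 to 193 CPM in the altered libraries (log2 fold change 3.77 ± 0.47 (SE), adjusted p = 0.00173). Ky, known from skeletal muscle, ran from 0 to 1.14 CPM in the unaltered and 5.78 to 78.8 CPM in the altered libraries and Mpp3, a membrane scaffold, from 0.0656 to 2.92 CPM in the unaltered and 13.6 to 21.1 CPM in the altered libraries, with log2 fold changes of 6.46 and 3.65. The call for Mpp3 was lost without TPK replicate 1, TPM replicate 1, TPMPik3ca replicate 1, TPMPik3ca replicate 2 or TPMPik3r1 replicate 2 (adjusted p = 0.0635 to 0.073).

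**Figure D1:**
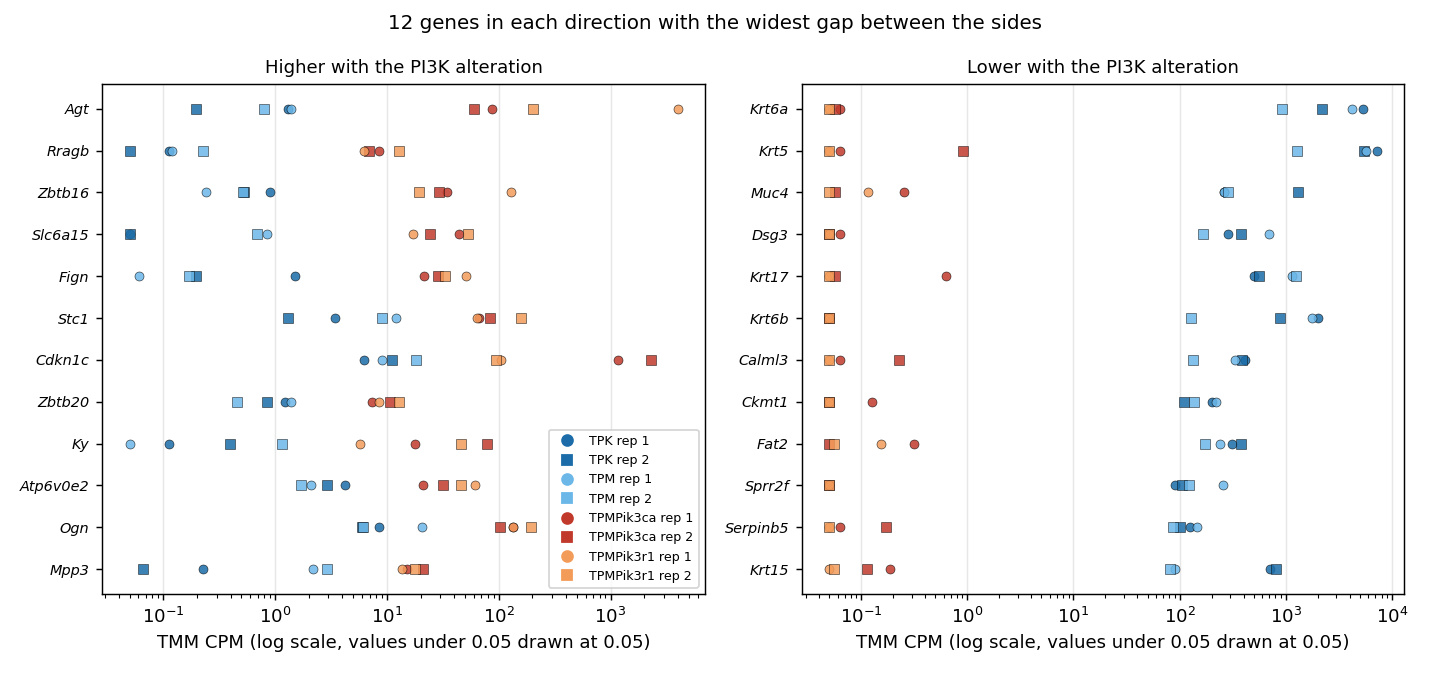
Each point is the TMM CPM of 1 gene in 1 library, on a log scale with values under 0.05 drawn at 0.05, for the 12 genes in each direction with the widest gap among genes that were called, separated and at 5 CPM or more throughout the higher side. Blue points are TPK and TPM, red and orange points TPMPik3ca and TPMPik3r1. In the right panel the altered libraries stand at or under 0.916 CPM, the value of Krt5 in TPMPik3ca replicate 2, and the others at 81.9 CPM or more, the lowest value of Krt15.

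Epithelial genes made up the largest differences, all in the downward direction. Of 34 general epithelial genes tested, 33 were lower and all 34 were below every unaltered library, with a median log2 fold change of -7.49, or -7.38 with genes at the floor set to their bound. Fewer cells of a type and less RNA per cell cannot be told apart in bulk libraries. The summed level of the list was 7459 to 11095 CPM in the unaltered and 75.8 to 196 CPM in the altered libraries. Krt7, the simple epithelial keratin, was at 814 and 1193 CPM in TPK, 1998 and 567 CPM in TPM, 4.46 and 1.37 CPM in TPMPik3ca and 1.32 and 3.42 CPM in TPMPik3r1 (log2 fold change -8.76 ± 0.71 (SE), adjusted p = 0.000334). Rab25, a GTPase of apical recycling in epithelia, was at 165 and 186 CPM in TPK, 193 and 123 CPM in TPM, 0.691 and 0.573 CPM in TPMPik3ca and 0.155 and 0.281 CPM in TPMPik3r1 (log2 fold change -8.64 ± 0.50 (SE), adjusted p = 0.00014). The sides were over 100-fold apart for both at their nearest libraries. Cblc, an epithelial ubiquitin ligase gene, and Ap1m2, an epithelial sorting adaptor gene, changed by -8.13 and -8.49 on the log2 scale (adjusted p = 7.62e-05 and 0.000141).

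Genes of squamous layers and of desmosomes, the junctions that hold epithelial cells together, were low as well. Beside 10.8% of all genes tested, 18 of 24 genes were lower in the basal layer list (75%) and 28 of 34 in the suprabasal and cornified list (82.4%). Among desmosome and cell junction genes 19 of 24 were lower (79.2%), with none higher in any of the lists. Leaving out 1 library kept these counts between 16 and 21, between 25 and 31 and between 17 and 22. Dsg3, the desmosomal cadherin desmoglein 3, had 1 count over the altered side and 166 to 691 CPM on the other, a ratio of 29181-fold (95% interval 5237 to 1152590.0, counting error only). Dsp, the desmosome plaque protein gene, was at 1436 and 1097 CPM in TPK, 3659 and 973 CPM in TPM, 2.58 and 0.458 CPM in TPMPik3ca and 0.698 and 0.673 CPM in TPMPik3r1 (log2 fold change -10.68 ± 0.92 (SE), adjusted p = 0.000425). Jup, encoding plakoglobin, which also serves other junctions, kept 34.9 to 59.2 CPM in the altered libraries beside 853 to 1380.2 CPM (log2 fold change -4.43 ± 0.29 (SE), adjusted p = 0.000143).

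Of the squamous genes, Fat2, an atypical cadherin gene, was at 173 to 375 CPM in the unaltered and 0 to 0.314 CPM in the altered libraries (log2 fold change -10.97 ± 0.71 (SE), adjusted p = 0.000141), and Itgb4, the integrin of hemidesmosomes, at 191 to 322 CPM in the unaltered and 3.14 to 6.66 CPM in the altered libraries (log2 fold change -5.86 ± 0.35 (SE), adjusted p = 0.00014). Krt6b was listed at 0 in all 4 altered libraries, at least 30639-fold below the other side, a bound from 3 counts over the side, and its close copy Krt6a had 2 counts there. Reads of the Krt6 and Sprr2 copies may be split between them, so single values in these families are uncertain. Serpinb5, Calml3 and Ckmt1, which encode maspin, a calmodulin-like protein and a mitochondrial creatine kinase, lay at 86.8 to 144 CPM, 135 to 415 CPM and 110.4 to 218 CPM in the unaltered libraries and at 0.229 CPM or less in the altered ones. Trp63, the p63 gene that specifies squamous basal cells, was at 227 and 199.6 CPM in TPK, 169.95 and 114 CPM in TPM, 0.189 and 1.15 CPM in TPMPik3ca and 0 and 10.5 CPM in TPMPik3r1 (log2 fold change -5.91 ± 1.46 (SE), adjusted p = 0.0267). TPMPik3r1 replicate 2 was the highest altered library for Trp63, and the call was lost without TPK replicate 1, TPK replicate 2, TPM replicate 1, TPMPik3ca replicate 1 or TPMPik3ca replicate 2 (adjusted p = 0.0524 to 0.062).

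Genes of the Mullerian duct, from which the uterus forms, and of endometrial glands were split. Of 23 tested, 8 were lower (34.8%, beside 10.8% of all genes) and 1 higher (4.35%, beside 7.06%), with a median log2 fold change of -1.08. Pax8, the transcription factor of Mullerian epithelium, was at 6.47 and 43.8 CPM in TPK, 26.5 and 12.3 CPM in TPM, 0.314 and 0.115 CPM in TPMPik3ca and 0 and 0.0561 CPM in TPMPik3r1 (log2 fold change -7.54 ± 1.08 (SE), adjusted p = 0.00309). Its relative Pax2 was listed at 0 in all 4 altered libraries and at 2.84 to 8.52 CPM in the others, at least 147-fold higher there. The mucin gene Muc1 was at 129.99 to 404 CPM in the unaltered and 1.37 to 2.97 CPM in the altered libraries (log2 fold change -6.84 ± 0.50 (SE), adjusted p = 0.000221), and the mucin gene Muc4 was at 262 to 1292 CPM in the unaltered and 0 to 0.251 CPM in the altered libraries (log2 fold change -12.21 ± 1.07 (SE), adjusted p = 0.000441). The estrogen receptor gene Esr1 overlapped between the sides, at 30.2 to 148 CPM in the unaltered and 18 to 142 CPM in the altered libraries (adjusted p = 0.875). The summed level of the list was 2331 to 11915 CPM in the unaltered libraries, 6400 CPM in TPMPik3r1 replicate 1 and 307 to 526 CPM in the other altered libraries. The lactoferrin gene Ltf, a member, gave 1389 to 8327 CPM of the unaltered sums and 0.504 CPM of that in TPMPik3r1 replicate 1. Pax8, Muc1 and Muc4 were at 0, 1.47 and 0.116 CPM in that library, so its sum came from other members. Pax8 and Krt7, which define the labelled tissue, were thus at 4.46 CPM or less throughout the altered side. The single higher gene was Hoxa9, a patterning gene of the Mullerian duct, at 1.18 to 6.34 CPM in the unaltered and 1.07 to 154 CPM in the altered libraries (log2 fold change 4.08 ± 1.21 (SE), adjusted p = 0.0498). Higher genes of the list numbered 0 without TPK replicate 1, TPK replicate 2, TPM replicate 1, TPM replicate 2, TPMPik3ca replicate 1, TPMPik3ca replicate 2 or TPMPik3r1 replicate 1 and 2 without TPMPik3r1 replicate 2.

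**Figure D2:**
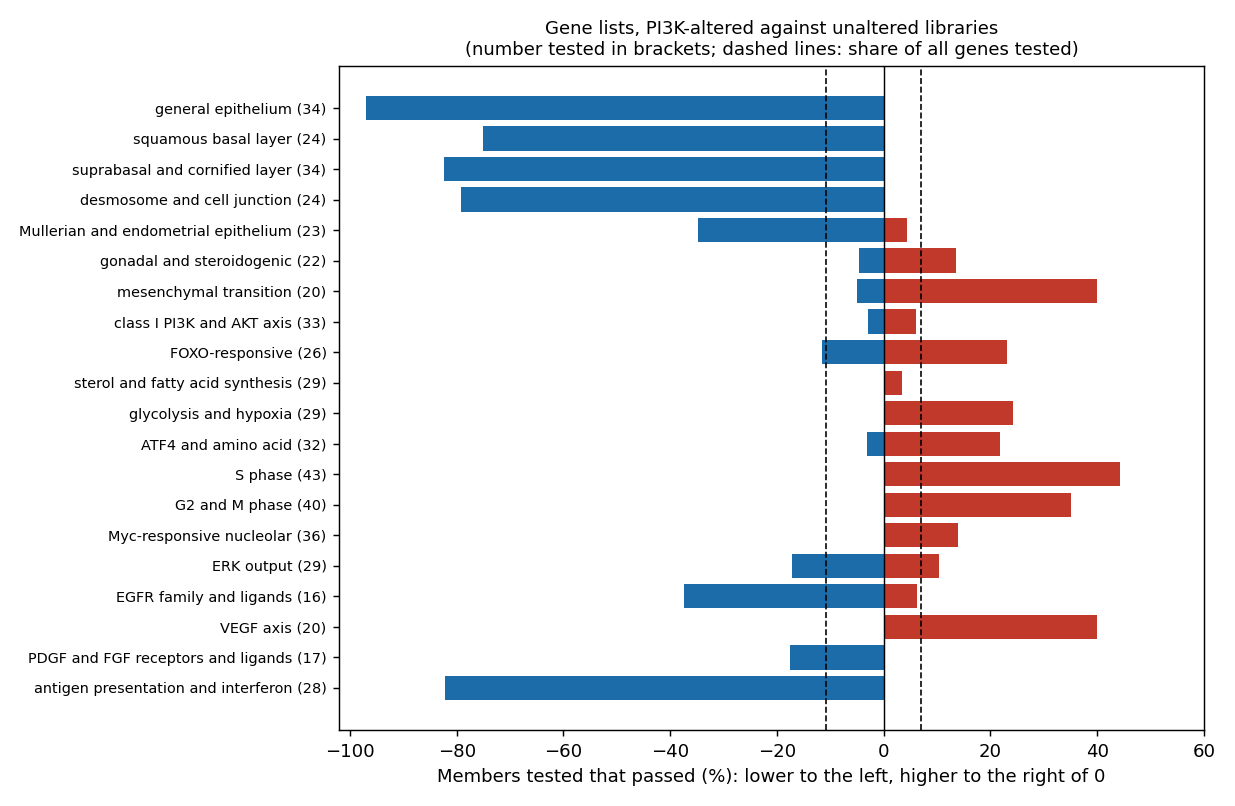
Bars give the percent of tested members of 20 gene programs that passed the test, lower ones to the left and higher ones to the right of 0, with the number tested in brackets. Dashed lines mark the shares over all genes tested, 10.8% lower and 7.06% higher, and the epithelial, squamous, junction and antigen lists reach furthest to the left. The S phase list reaches furthest to the right of the programs drawn, and the cell type marker lists, endothelium among them, are not drawn.

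Genes of the EGFR family of growth factor receptors and their ligands were lower in part. Of 16 tested, 6 were lower (37.5%, beside 10.8% of all genes) and 1 higher, and 4 had a log2 fold change above 0. The higher one was Errfi1, a feedback inhibitor of the receptors (log2 fold change 1.73 ± 0.41 (SE), adjusted p = 0.0227). Among receptors, Erbb3, which binds PI3K directly once phosphorylated, was at 53.6 and 89.1 CPM in TPK, 109.96 and 90.6 CPM in TPM, 1.26 and 2.40 CPM in TPMPik3ca and 1.28 and 1.35 CPM in TPMPik3r1 (log2 fold change -5.77 ± 0.36 (SE), adjusted p = 0.000141). Erbb2, its usual partner, was at 139 and 165 CPM in TPK, 195 and 219 CPM in TPM, 13.9 and 6.53 CPM in TPMPik3ca and 1.20 and 11 CPM in TPMPik3r1 (log2 fold change -4.46 ± 0.67 (SE), adjusted p = 0.00374). Both were below every unaltered library. Of the ligands, Tgfa was at 37.3 to 60.8 CPM in the unaltered and 0.916 to 3.03 CPM in the altered libraries (log2 fold change -4.75 ± 0.43 (SE), adjusted p = 0.00047) and Btc, encoding betacellulin, at 4.58 to 12.9 CPM in the unaltered and 0.116 to 0.440 CPM in the altered libraries (log2 fold change -4.77 ± 0.62 (SE), adjusted p = 0.00206). Without 1 library 4 or 5 members were lower, and the number of higher ones was 0 without TPK replicate 1, TPK replicate 2, TPM replicate 2, TPMPik3ca replicate 1 or TPMPik3r1 replicate 2. These genes are also expressed by epithelia, whose markers fell in the same libraries. Whether the epithelial difference accounts for them was not tested.

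ERK output genes, which report on MAP kinase signaling, were called at shares near those of all genes, with 3 of 29 higher (10.3%, beside 7.06%) and 5 lower (17.2%, beside 10.8%). Epha2, a receptor tyrosine kinase gene, was at 83.9 to 359 CPM in the unaltered and 17.6 to 44.5 CPM in the altered libraries (log2 fold change -2.94 ± 0.48 (SE), adjusted p = 0.00503), and Dusp7, a phosphatase of ERK, at 59.3 to 109 CPM in the unaltered and 22.1 to 37.4 CPM in the altered libraries (log2 fold change -1.67 ± 0.27 (SE), adjusted p = 0.00528). Dusp4, Epha4 and the EGFR ligand gene Tgfa were the other lower genes, and Dusp5 and the early growth response gene Egr1 were higher, with log2 fold changes of 1.70 and 4.08. Spry4, a feedback inhibitor of receptor signaling, rose from levels of 1.38 to 6.75 CPM to levels of 15.8 to 57.5 CPM (log2 fold change 2.88 ± 0.57 (SE), adjusted p = 0.0116). Counts of higher genes were 1 without TPK replicate 2, TPM replicate 2, TPMPik3ca replicate 1 or TPMPik3r1 replicate 2 and 5 without TPMPik3r1 replicate 1, and those of lower genes 3 without TPK replicate 1, TPK replicate 2, TPM replicate 1, TPMPik3ca replicate 1 or TPMPik3r1 replicate 2.

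Antigen presentation and interferon-responsive genes were lower almost throughout. MHC class I molecules carry peptides to the cell surface, peptides that the immunoproteasome cuts and the TAP transporter loads, and interferon raises all of these genes. Of 28 members, all tested, 23 were lower and none higher, beside 10.8% lower over all genes, and 22 were separated, with a median log2 fold change of -2.55. Ifit1, an interferon-induced antiviral gene (GRCm38 chr19:34640871-34650009), was at 273 and 426 CPM in TPK, 248 and 105 CPM in TPM, 6.16 and 7.84 CPM in TPMPik3ca and 9.04 and 5.33 CPM in TPMPik3r1 (log2 fold change -5.21 ± 0.46 (SE), adjusted p = 0.000445). Isg15, a ubiquitin-like modifier, was at 399 and 339 CPM in TPK, 183 and 105 CPM in TPM, 11 and 18.4 CPM in TPMPik3ca and 19.7 and 10.9 CPM in TPMPik3r1 (log2 fold change -4.09 ± 0.48 (SE), adjusted p = 0.00137). All altered libraries lay below all others for both. Ifit3 and Mx1, which restricts viral replication, changed by -5.41 and -5.48 on the log2 scale (adjusted p = 0.00244 and 0.00231).

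Presentation genes were among the lower ones. H2-K1, an MHC class I heavy chain gene, was at 5548 and 4835 CPM in TPK, 1881 and 1741 CPM in TPM, 204 and 383 CPM in TPMPik3ca and 354 and 93.4 CPM in TPMPik3r1 (log2 fold change -3.76 ± 0.61 (SE), adjusted p = 0.00499). B2m, the class I light chain gene, was at 2801 and 3116 CPM in TPK, 1115 and 1182 CPM in TPM, 297 and 603 CPM in TPMPik3ca and 396 and 199 CPM in TPMPik3r1 (log2 fold change -2.46 ± 0.49 (SE), adjusted p = 0.0114). TPK was above TPM, and TPM above every altered library. H2-D1 was called too (log2 fold change -2.39 ± 0.59 (SE), adjusted p = 0.0261), but reads of class I genes that share sequence may be split among them. Tap1, the peptide transporter gene, was at 150.3 to 391 CPM in the unaltered and 12.1 to 79.9 CPM in the altered libraries, Psmb8, an immunoproteasome subunit gene, at 88.4 to 266 CPM in the unaltered and 11.8 to 70.5 CPM in the altered libraries, and Nlrc5, the transactivator of class I genes, at 99.7 to 193 CPM in the unaltered and 3.52 to 35.7 CPM in the altered libraries, with adjusted p = 0.0177, 0.0322 and 0.0212. Among regulators, Irf7 was lower (log2 fold change -3.59 ± 0.67 (SE), adjusted p = 0.00923). Irf1, at 80 to 157 CPM in the unaltered and 20.9 to 139.99 CPM in the altered libraries, was not called (adjusted p = 0.506).

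The summed level of the list was 5766.5 to 15427 CPM in the unaltered libraries, highest in TPK, and 977 to 2212 CPM in the altered ones. Between 16 and 23 members were lower when 1 library was left out. Leaving out TPK took the count to 8, and leaving out TPM, TPMPik3ca or TPMPik3r1 took it to 19, 17 or 13. Immune cell markers were counted beside it. The macrophage list had a summed level of 940 to 3915 CPM in the unaltered and 438 to 6397 CPM in the altered libraries, the neutrophil list one of 3359 to 9313 and 495 to 3689 CPM, and the lymphocyte list of T and NK cells stayed at 67.8 CPM or less. Most of the difference in the neutrophil sum lay in Ltf, which encodes lactoferrin and was the single gene of these lists that was called, at 1389 to 8327 CPM in the unaltered and 0.504 to 58.4 CPM in the altered libraries. Without Ltf the neutrophil sum was 986 to 2948 CPM in the unaltered libraries and 490 to 3631 CPM in the altered ones, highest in TPMPik3ca replicate 1. A single gene, Lcn2, gave 909 CPM of the 930 CPM in TPMPik3r1 replicate 1 and 1933 CPM of the 2948 CPM in TPM replicate 2. The marker S100a8 was at 4.65 CPM in TPMPik3r1 replicate 1 and at 78.2 to 819 CPM in the other libraries. Of 15 macrophage genes 12 had a log2 fold change above 0, with a median of 0.49, and of 14 neutrophil genes 8, with a median of 0.20. Their part in the result was not tested.

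**Figure D3:**
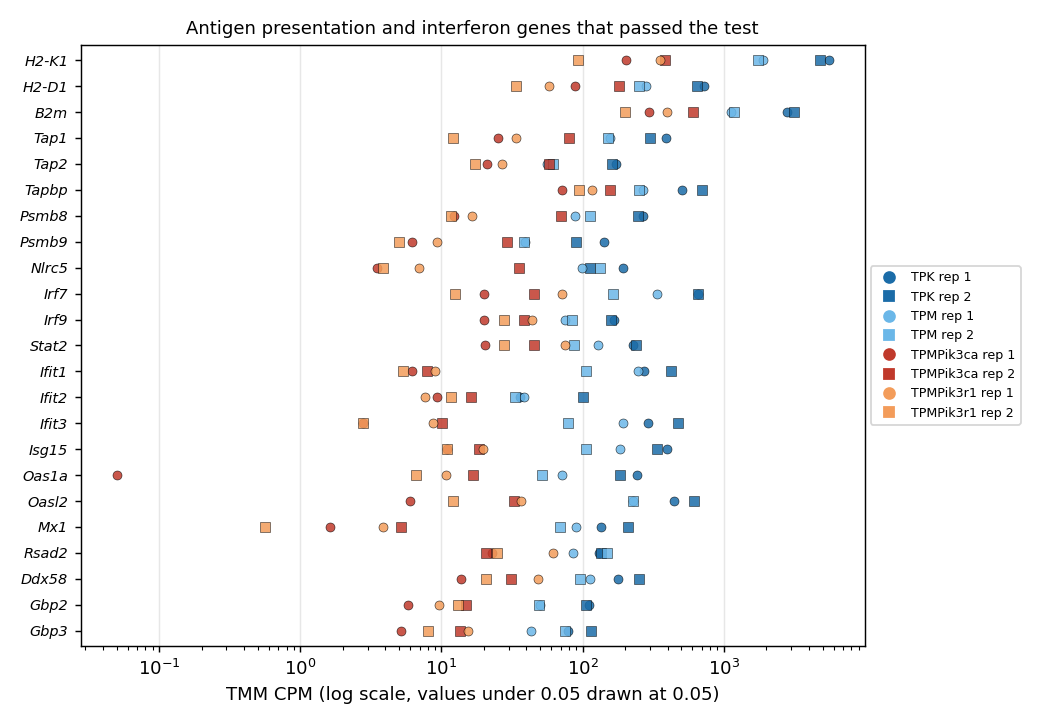
Each point is the TMM CPM of 1 gene in 1 library, on a log scale with a value under 0.05 drawn at 0.05, for the 23 antigen presentation and interferon-responsive genes that passed the test. For 22 of them, with Tap2 the exception, all red and orange points (TPMPik3ca and TPMPik3r1) lie to the left of all blue points (TPK and TPM).

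Promoters of these genes were read because 23 of the members were lower. The interferon-stimulated response element was searched as GAAA followed after any 2 bases by a further GAAA, on both strands of the window from 250 bases before to 50 after each start. Of the 24 members with a promoter in the table, 12 held it, as did 10 of the 20 called lower. Among all 11024 tested genes with a promoter it was held by 3.82%. The list was made of genes that interferon raises, and the share among the called members was the same as among all members. The element therefore did not mark the called genes. The search is a description of the letters in these windows, and says nothing of which factor was bound. The windows are from RefSeq on GRCm38.p6, with the element in capitals. In Isg15 the matches overlap each other.
B2m (chr2:122147437-122147736, plus strand): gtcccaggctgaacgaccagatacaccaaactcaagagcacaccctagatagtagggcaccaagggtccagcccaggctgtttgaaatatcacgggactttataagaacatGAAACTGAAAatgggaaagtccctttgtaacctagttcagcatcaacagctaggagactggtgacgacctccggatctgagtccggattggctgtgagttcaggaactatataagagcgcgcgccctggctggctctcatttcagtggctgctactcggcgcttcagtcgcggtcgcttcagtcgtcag
Ifit1 (chr19:34640639-34640938, plus strand): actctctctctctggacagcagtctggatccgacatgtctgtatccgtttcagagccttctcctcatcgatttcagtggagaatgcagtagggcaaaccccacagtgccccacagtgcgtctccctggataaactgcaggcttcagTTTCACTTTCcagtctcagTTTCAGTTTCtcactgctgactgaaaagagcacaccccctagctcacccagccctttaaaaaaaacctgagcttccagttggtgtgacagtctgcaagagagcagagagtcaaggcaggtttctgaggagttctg
Isg15 (chr4:156200769-156201068, minus strand): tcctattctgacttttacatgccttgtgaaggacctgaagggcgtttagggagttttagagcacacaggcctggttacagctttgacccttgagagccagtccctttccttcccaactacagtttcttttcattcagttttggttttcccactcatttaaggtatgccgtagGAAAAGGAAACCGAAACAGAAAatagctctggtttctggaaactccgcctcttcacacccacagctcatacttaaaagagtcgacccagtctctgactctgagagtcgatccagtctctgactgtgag

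S phase genes encode the machinery of DNA replication and its regulators. Of 43, 19 were higher (44.2%, beside 7.06% of all genes tested) and none lower, 3 had a log2 fold change below 0, and 25 were separated, with a median log2 fold change of 0.84. E2f1, a transcription factor that switches on S phase genes, was at 15.9 and 13.3 CPM in TPK, 14.4 and 14.1 CPM in TPM, 39.1 and 65.3 CPM in TPMPik3ca and 49.6 and 54.6 CPM in TPMPik3r1 (log2 fold change 1.85 ± 0.21 (SE), adjusted p = 0.00128). Mcm6, a subunit of the replicative helicase, was at 89.7 and 67.5 CPM in TPK, 81.3 and 97.3 CPM in TPM, 135 and 205 CPM in TPMPik3ca and 168 and 180.3 CPM in TPMPik3r1 (log2 fold change 1.03 ± 0.19 (SE), adjusted p = 0.00838). No altered library overlapped an unaltered one for either. Pole and Pola1, catalytic subunits of DNA polymerases epsilon and alpha, were at 18 to 29.5 CPM in the unaltered and 45.3 to 75.7 CPM in the altered libraries and 15.9 to 22.5 CPM in the unaltered and 34.7 to 47.6 CPM in the altered libraries, respectively, with changes of 1.39 and 1.11 on the log2 scale (adjusted p = 0.00756 and 0.00909). Cdt1, Ccne1 and Pcna were higher too, while Rfc3 was not called, at 19.2 to 27.7 CPM in the unaltered and 12.6 to 25.7 CPM in the altered libraries.

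The 19 called genes had log2 fold changes of 0.70 (Mcm7) to 1.85 (E2f1). Leaving out TPMPik3r1 replicate 1 raised the S phase count to 25, and leaving out TPM replicate 1 or TPMPik3r1 replicate 2 lowered it to 7. It was 8 without TPK replicate 2, 9 without TPK replicate 1 or TPMPik3ca replicate 1, 10 without TPMPik3ca replicate 2 and 14 without TPM replicate 2. Leaving out a model gave 3 without TPK, 4 without TPM or TPMPik3ca and 15 without TPMPik3r1. Without any 1 library the median log2 fold change stayed between 0.68 and 0.86.

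**Figure D4:**
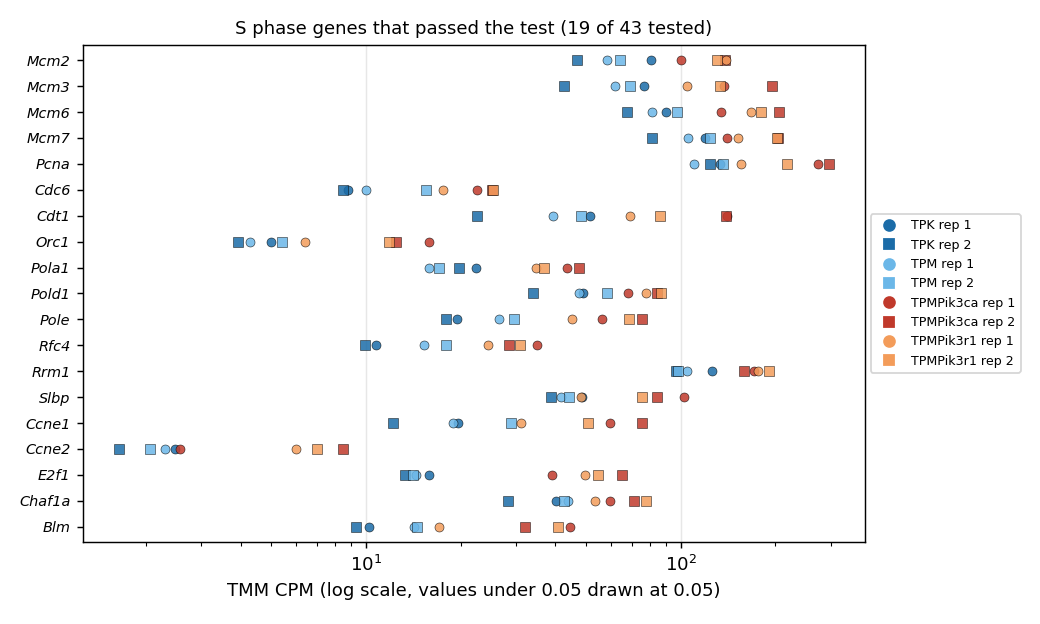
Each point is the TMM CPM of 1 gene in 1 library, on a log scale, for the 19 S phase genes that passed the test. Red and orange points (TPMPik3ca and TPMPik3r1) lie to the right of the blue ones (TPK and TPM) for 18 of the 19 genes, with Slbp the exception.

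Mitotic genes followed. Of 40 G2 and M phase genes, 14 were higher (35%, beside 7.06% of all genes tested) and none lower. The median log2 fold change was 0.71, and 39 were above 0. Cdk1, the mitotic kinase gene, was at 64.8 and 43.3 CPM in TPK, 50.5 and 55.3 CPM in TPM, 104 and 113 CPM in TPMPik3ca and 89.7 and 117 CPM in TPMPik3r1 (log2 fold change 0.99 ± 0.18 (SE), adjusted p = 0.00816). Its partner cyclin gene Ccnb1 was at 51.8 and 45.9 CPM in TPK, 43.6 and 59.7 CPM in TPM, 143 and 91.2 CPM in TPMPik3ca and 85.2 and 149 CPM in TPMPik3r1 (log2 fold change 1.22 ± 0.24 (SE), adjusted p = 0.0105). Mki67, the gene of the proliferation antigen Ki-67, was at 183 and 135 CPM in TPK, 176 and 177 CPM in TPM, 278 and 276 CPM in TPMPik3ca and 255 and 309.7 CPM in TPMPik3r1 (log2 fold change 0.74 ± 0.16 (SE), adjusted p = 0.0176). The altered libraries were above all others for each of these genes, with TPMPik3r1 replicate 1 the lowest of the 4 in each. Aurkb, a kinase of chromosome segregation, had a log2 fold change of 1.26 (adjusted p = 0.0178). Leaving out 1 library, the higher genes numbered 2 without TPMPik3r1 replicate 2, 3 without TPM replicate 1, 4 without TPK replicate 1, 5 without TPK replicate 2, 6 without TPMPik3ca replicate 1, 7 without TPMPik3ca replicate 2 and 27 without TPMPik3r1 replicate 1. The call for Aurkb was lost without TPK replicate 1, TPM replicate 1 or TPMPik3r1 replicate 2 (adjusted p = 0.0512 to 0.0529), and that for Mki67 was lost without TPMPik3r1 replicate 2 (adjusted p = 0.0557).

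In the promoters of the replication genes the E2F motif was searched in 3 forms on both strands. TTTGGCGC was found in 5 of 32 S phase members with a promoter in the table and in 1.07% of tested genes, TTTCCCGC in 6 of 32 and 2.15%, and TCCCGCC in 12 of 32 and 23.0%. Of the 17 S phase members called higher, 4, 4 and 7 held these forms, in the same order. Of 32 G2 and M phase members with a promoter, 0, 0 and 9 held them. TTTCCCGC and TCCCGCC share letters and can match the same bases. The promoter of Mcm6 is shown since it holds TTTGGCGC at 2 places, in capitals.
Mcm6 (chr1:128359656-128359955, minus strand): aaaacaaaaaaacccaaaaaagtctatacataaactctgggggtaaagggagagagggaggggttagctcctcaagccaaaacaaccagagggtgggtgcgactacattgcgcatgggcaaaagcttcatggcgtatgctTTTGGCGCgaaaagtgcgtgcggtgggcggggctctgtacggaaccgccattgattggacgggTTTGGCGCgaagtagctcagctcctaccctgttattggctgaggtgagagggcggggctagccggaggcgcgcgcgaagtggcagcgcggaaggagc

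Nucleolar and nucleotide genes that respond to Myc came next. Of 36 tested, 5 were higher (13.9%, beside 7.06% of all genes) and none lower, with 35 log2 fold changes above 0. Srm, spermidine synthase, was at 109 and 92 CPM in TPK, 130.1 and 140.5 CPM in TPM, 361 and 297 CPM in TPMPik3ca and 318 and 341 CPM in TPMPik3r1 (log2 fold change 1.48 ± 0.18 (SE), adjusted p = 0.00173), and Cad, the first enzyme of pyrimidine synthesis, at 100.3 and 90 CPM in TPK, 145 and 148 CPM in TPM, 238 and 246 CPM in TPMPik3ca and 328 and 274 CPM in TPMPik3r1 (log2 fold change 1.17 ± 0.22 (SE), adjusted p = 0.00976). Mrto4 and Dkc1, of ribosome and telomerase RNA assembly, changed by 1.06 and 0.82 on the log2 scale (adjusted p = 0.0116 and 0.0317), and Nop58, of small nucleolar RNA particles, was higher too (adjusted p = 0.0417). TPM lay above TPK for these 5 genes, a difference that was not called (adjusted p = 0.694 to 0.740), and below the altered models. Higher members numbered 3 without TPK replicate 1, TPK replicate 2, TPM replicate 1, TPMPik3ca replicate 1 or TPMPik3r1 replicate 2 and 8 without TPMPik3r1 replicate 1, and the call for Dkc1 was lost without TPK replicate 1, TPK replicate 2, TPM replicate 1, TPMPik3ca replicate 1 or TPMPik3r1 replicate 2 (adjusted p = 0.0653 to 0.0877).

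Biosynthetic pathways below mTORC1 were uneven. Of 32 ATF4 and amino acid genes, 7 were higher (21.9%, beside 7.06% of all genes) and 1 lower (3.12%, beside 10.8%). Mthfd2, a mitochondrial folate enzyme, was at 39.8 and 35.5 CPM in TPK, 46.2 and 45 CPM in TPM, 133 and 82.4 CPM in TPMPik3ca and 131 and 103 CPM in TPMPik3r1 (log2 fold change 1.43 ± 0.20 (SE), adjusted p = 0.00296), and Phgdh, the first enzyme of serine synthesis, at 122 and 135 CPM in TPK, 173 and 172 CPM in TPM, 433 and 318 CPM in TPMPik3ca and 537 and 333 CPM in TPMPik3r1 (log2 fold change 1.43 ± 0.23 (SE), adjusted p = 0.00503). Neither overlapped between the sides. Cbs, of the transsulfuration pathway, rose from levels of 4.56 to 11.9 CPM to levels of 16.4 to 61 CPM (log2 fold change 2.23 ± 0.50 (SE), adjusted p = 0.0187), and Slc6a9, a glycine transporter gene, fell from levels of 44.6 to 81.8 CPM to levels of 25 to 30.8 CPM (log2 fold change -1.25 ± 0.23 (SE), adjusted p = 0.00879). Atf4 itself was at 236 to 304 CPM in the unaltered and 236 to 756 CPM in the altered libraries (adjusted p = 0.257). The number of higher genes was 2 without TPK replicate 1 or TPK replicate 2, 3 without TPM replicate 1 or TPMPik3ca replicate 1 and 4 without TPMPik3r1 replicate 2, and the call for Cbs was lost without TPK replicate 1 or TPK replicate 2 (adjusted p = 0.0507 to 0.0551).

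Sterol and fatty acid synthesis genes were not raised as a list, with 1 of 29 higher (3.45%, beside 7.06% of all genes) and none lower. The called member was Insig1, a sterol-sensing inhibitor of the pathway, at 30.9 and 35.7 CPM in TPK, 50.7 and 41.7 CPM in TPM, 306 and 135 CPM in TPMPik3ca and 165 and 110.2 CPM in TPMPik3r1 (log2 fold change 2.17 ± 0.34 (SE), adjusted p = 0.00473). Higher genes numbered 2 without TPM replicate 2 or TPMPik3r1 replicate 1. Without TPMPik3r1 replicate 1, where the summed level of the list was 15927 CPM beside 3452 to 7143 CPM in the other 7 libraries, 5 members were lower.

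Glycolysis and hypoxia genes were higher for 7 of 29 (24.1%, beside 7.06% of all genes tested), with none lower. P4ha1, a collagen hydroxylase gene induced by hypoxia, was at 97.2 and 83.2 CPM in TPK, 66.9 and 49.4 CPM in TPM, 446 and 221 CPM in TPMPik3ca and 205 and 309 CPM in TPMPik3r1 (log2 fold change 1.99 ± 0.32 (SE), adjusted p = 0.00493). Slc2a3, a glucose transporter gene, was at 8.89 and 6.16 CPM in TPK, 10.1 and 11.2 CPM in TPM, 427 and 63.7 CPM in TPMPik3ca and 17.5 and 129 CPM in TPMPik3r1 (log2 fold change 4.13 ± 0.89 (SE), adjusted p = 0.0164). The sides did not overlap, although Slc2a3 varied over more than an order of magnitude within the altered side. The lactate exporter gene Slc16a3 had a log2 fold change of 1.16 (adjusted p = 0.0162) and the phosphofructokinase gene Pfkm one of 1.09 (adjusted p = 0.028). Counts of higher genes were 1 without TPK replicate 1, 3 without TPK replicate 2, TPM replicate 1 or TPM replicate 2 and 4 without TPMPik3ca replicate 1. The call for Slc2a3 was lost without TPK replicate 1 or TPK replicate 2 (adjusted p = 0.0535 to 0.0561). That for Slc16a3 was lost without TPK replicate 1 (adjusted p = 0.0522), and that for Pfkm was lost without TPK replicate 1, TPM replicate 1, TPM replicate 2 or TPMPik3r1 replicate 2 (adjusted p = 0.0534 to 0.0767).

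Genes of the VEGF axis, which drives vessel growth, were higher for 8 of 20 tested (40%, beside 7.06% of all genes), and none was lower. Their median log2 fold change was 0.85, beside 0.06 for all genes tested. Among ligands, Vegfa was at 189.9 and 137 CPM in TPK, 211 and 279 CPM in TPM, 647 and 306 CPM in TPMPik3ca and 567 and 554 CPM in TPMPik3r1 (log2 fold change 1.34 ± 0.30 (SE), adjusted p = 0.0185), and placental growth factor, Pgf, was at 2.59 and 0.590 CPM in TPK, 3.20 and 5.21 CPM in TPM, 46.5 and 11.9 CPM in TPMPik3ca and 14 and 49 CPM in TPMPik3r1 (log2 fold change 3.38 ± 0.75 (SE), adjusted p = 0.018). Among receptors, Flt1 (GRCm38 chr5:147561604-147726011) was at 8.05 and 6.69 CPM in TPK, 13.8 and 15.7 CPM in TPM, 148 and 102 CPM in TPMPik3ca and 29.5 and 188 CPM in TPMPik3r1 (log2 fold change 3.40 ± 0.57 (SE), adjusted p = 0.00601), and the co-receptor gene Nrp2 was at 38.7 and 36.5 CPM in TPK, 45.6 and 43 CPM in TPM, 177 and 109 CPM in TPMPik3ca and 160.4 and 94.2 CPM in TPMPik3r1 (log2 fold change 1.72 ± 0.24 (SE), adjusted p = 0.00251). The sides did not overlap for any of these. Flt4, the lymphatic receptor gene, had a log2 fold change of 1.64 (adjusted p = 0.013). Leaving out 1 library, the higher genes numbered 3 without TPM replicate 1, 4 without TPK replicate 1 and 5 without TPMPik3r1 replicate 2, and the call for Pgf was lost without TPK replicate 1 or TPM replicate 1 (adjusted p = 0.0529 to 0.0564).

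Endothelial markers moved with the receptors. Of 14 endothelial genes, 7 were higher (50%, beside 7.06% of all genes tested) and none lower. Their summed level was 120 to 345 CPM in the unaltered libraries and 712, 924, 306 and 1144.5 CPM in TPMPik3ca replicates 1 and 2 and TPMPik3r1 replicates 1 and 2. Cdh5, which encodes VE-cadherin, was at 44.2 and 13.4 CPM in TPK, 38.7 and 29.6 CPM in TPM, 165 and 192 CPM in TPMPik3ca and 56.8 and 257 CPM in TPMPik3r1 (log2 fold change 2.41 ± 0.51 (SE), adjusted p = 0.0155), whereas Vwf, von Willebrand factor, was at 25.9 and 8.20 CPM in TPK, 14.1 and 19.4 CPM in TPM, 15 and 7.50 CPM in TPMPik3ca and 1.71 and 3.93 CPM in TPMPik3r1 (adjusted p = 0.214). No marker was at 0 throughout a side. Higher endothelial genes numbered 2 without TPM replicate 1 or TPMPik3r1 replicate 2, 3 without TPK replicate 2 and 4 without TPM replicate 2 or TPMPik3ca replicate 2. The part of endothelial RNA in the VEGF result was not tested.

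PDGF and FGF ligands and receptors had 3 of 17 genes lower (17.6%, beside 10.8% of all genes) and none higher, while 10 had a log2 fold change above 0 and the median was 0.33. Fgfbp1, a carrier of FGF from epithelia, was at 32.7 to 109 CPM in the unaltered and 0 to 0.427 CPM in the altered libraries (log2 fold change -8.46 ± 0.85 (SE), adjusted p = 0.000716), Fgf1 at 11.2 to 38.8 CPM in the unaltered and 0.504 to 1.77 CPM in the altered libraries (log2 fold change -4.18 ± 0.56 (SE), adjusted p = 0.00231) and Pdgfa at 31.3 to 47.1 CPM in the unaltered and 3.53 to 14.8 CPM in the altered libraries (log2 fold change -2.08 ± 0.45 (SE), adjusted p = 0.0166). Without 1 library 3 or 4 members were lower.

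Most mesenchymal transition genes had a log2 fold change above 0, 17 of 20 against 3 below. Of the 20, 8 were higher (40%, beside 7.06% of all genes) and 1 lower (5%, beside 10.8%). The median log2 fold change was 1.56, beside 0.06 for all genes tested. Zeb2 and Zeb1, repressors of epithelial genes, were at 43.8 and 26.6 CPM in TPK, 32 and 22.1 CPM in TPM, 116 and 137 CPM in TPMPik3ca and 115 and 143 CPM in TPMPik3r1 (log2 fold change 2.04 ± 0.24 (SE), adjusted p = 0.00139) and at 7.65 and 8.33 CPM in TPK, 20.2 and 14.6 CPM in TPM, 46.4 and 45.5 CPM in TPMPik3ca and 46.6 and 51.4 CPM in TPMPik3r1 (log2 fold change 1.90 ± 0.33 (SE), adjusted p = 0.00709). The altered libraries lay close together for both, and above all unaltered ones. Snai2, of the same functional class, fell instead, from levels of 14.1 to 20.8 CPM to levels of 2.47 to 5.15 CPM (log2 fold change -2.28 ± 0.34 (SE), adjusted p = 0.00361), and Tcf4, a helix-loop-helix factor gene, rose from levels of 42.5 to 99.3 CPM to levels of 168 to 416 CPM (log2 fold change 1.87 ± 0.38 (SE), adjusted p = 0.0132). Of 16 fibroblast genes Fap, fibroblast activation protein, was higher (log2 fold change 1.56 ± 0.44 (SE), adjusted p = 0.0417) and none was lower, with summed levels of 3221 to 10849 CPM and 2040 to 19823 CPM on the sides. Higher fibroblast genes numbered 0 without TPK replicate 1, TPK replicate 2, TPM replicate 2, TPMPik3ca replicate 1, TPMPik3ca replicate 2 or TPMPik3r1 replicate 2 and 2 without TPMPik3r1 replicate 1. Higher transition genes numbered 3 without TPK replicate 2 or TPM replicate 2, 4 without TPMPik3ca replicate 1 and 5 without TPK replicate 1, TPM replicate 1 or TPMPik3r1 replicate 2.

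**Figure D5:**
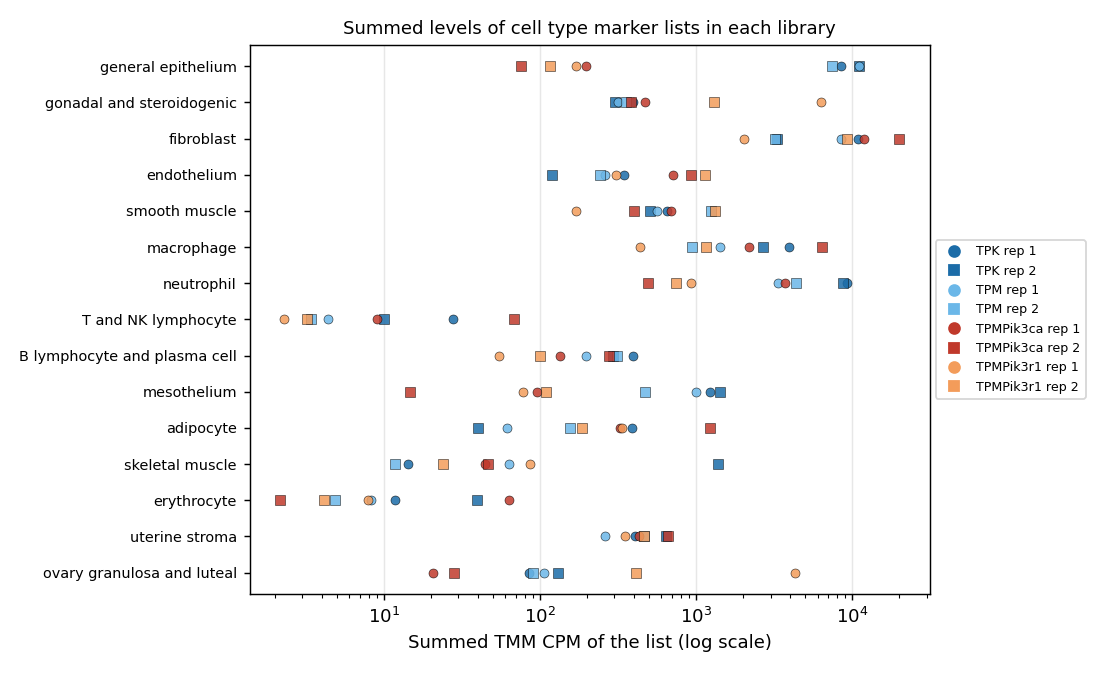
Each point is the summed TMM CPM of a marker list in 1 library, on a log scale. The general epithelium list separates the sides, at 75.8 to 196 CPM in TPMPik3ca and TPMPik3r1 beside 7459 CPM or more in TPK and TPM, and TPMPik3r1 replicate 1 is the highest library for the gonadal and ovarian lists.

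The gonadal and steroidogenic list held 22 tested genes, of which 3 were higher (13.6%, beside 7.06% of all genes) and 1 lower (4.55%, beside 10.8%). Gata4, a transcription factor of gonadal and adrenal precursors, was at 1.07 and 1.44 CPM in TPK, 0 and 0 CPM in TPM, 5.28 and 11.6 CPM in TPMPik3ca and 137 and 185 CPM in TPMPik3r1 (log2 fold change 7.07 ± 1.67 (SE), adjusted p = 0.0227). TPMPik3r1 was high and TPMPik3ca intermediate. Scarb1, the receptor for high-density lipoprotein, was at 53.5 and 36.1 CPM in TPK, 49.5 and 61.7 CPM in TPM, 119 and 106 CPM in TPMPik3ca and 136 and 100.1 CPM in TPMPik3r1 (log2 fold change 1.20 ± 0.21 (SE), adjusted p = 0.00633). The lower gene was Fst, which encodes the activin antagonist follistatin, at 30.4 to 78.2 CPM in the unaltered and 1.24 to 15.7 CPM in the altered libraries (log2 fold change -2.63 ± 0.69 (SE), adjusted p = 0.0331). Cyp11a1, the enzyme that starts steroid synthesis from cholesterol, was at 0.788 and 0.0656 CPM in TPK, 3.81 and 0.172 CPM in TPM, 0.754 and 8.70 CPM in TPMPik3ca and 3774 and 183 CPM in TPMPik3r1 (log2 fold change 9.67 ± 2.80 (SE), adjusted p = 0.0465). TPMPik3r1 replicate 1 and then replicate 2 were far above all other libraries, TPMPik3ca replicate 1 lay among the unaltered libraries, and the call was lost without TPK replicate 1, TPK replicate 2, TPM replicate 1, TPM replicate 2, TPMPik3r1 replicate 1 or TPMPik3r1 replicate 2 (adjusted p = 0.0545 to 0.118). Without TPMPik3r1 replicate 1 the log2 fold change of Cyp11a1 was 5.71, and without the model TPMPik3r1 it was 1.93. The granulosa and luteal list summed to 4307 CPM in TPMPik3r1 replicate 1, 413 CPM in replicate 2 and 20.7 to 130 CPM elsewhere. Higher genes of the list numbered 1 without TPK replicate 1, TPK replicate 2, TPM replicate 1 or TPMPik3r1 replicate 2, 5 without TPMPik3r1 replicate 1 and 6 without TPMPik3ca replicate 1. The call for Gata4 was lost without TPK replicate 1, TPK replicate 2, TPM replicate 1 or TPMPik3r1 replicate 2 (adjusted p = 0.0532 to 0.0612), and that for Fst was lost without TPK replicate 1, TPK replicate 2, TPM replicate 1, TPMPik3ca replicate 1 or TPMPik3r1 replicate 2 (adjusted p = 0.0582 to 0.088).

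Markers of other tissues were counted as well. By edgeR's test none of 11 smooth muscle, 15 macrophage, 9 adipocyte, 7 skeletal muscle or 10 uterine stroma genes was called. Of the T and NK cell and erythrocyte lists 3 genes and 1 gene could be tested, none of them called, and the 4 hemoglobin genes were listed at 0 in every library. Over these 56 genes 8 had an unadjusted p under 0.05. DESeq2 called 1 higher and 1 lower T and NK cell gene, 1 higher adipocyte gene, and 2 higher and 1 lower uterine stroma genes. Without TPK replicate 1 edgeR called 2 adipocyte genes higher, without either TPMPik3r1 library 1 uterine stroma gene higher and 1 lower, and without TPK replicate 1 or TPMPik3r1 replicate 1 a skeletal muscle gene lower. Of 8 mesothelial genes Krt19, also an epithelial keratin, and Msln, mesothelin, were lower, with log2 fold changes of -6.88 and -2.28. Lower mesothelial genes numbered 1 without TPK replicate 1, TPK replicate 2, TPM replicate 1, TPM replicate 2, TPMPik3r1 replicate 1 or TPMPik3r1 replicate 2, and 1 with a term for each model. Of 14 neutrophil genes Ltf, lactoferrin, was lower, and of 5 B lymphocyte and plasma cell genes Xbp1, a factor of secretory cells, with log2 fold changes of -8.10 and -1.58. Without TPMPik3r1 replicate 1, 3 neutrophil genes were higher and 2 lower, and 1 gene of the B lymphocyte and plasma cell list was higher. Of 7 granulosa and luteal genes Cyp11a1 was higher, and Akr1c18, which inactivates progesterone, was lower, with a log2 fold change of -4.13.

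The models within a side were compared as well. Between TPM and TPK 0 genes passed edgeR's test, with 1011 at an unadjusted p under 0.05, and DESeq2 called 215. Between TPMPik3r1 and TPMPik3ca 0 genes passed, with 1695 at an unadjusted p under 0.05, and DESeq2 called 712. Without replicate 2 of TPMPik3r1, the remaining library being assumed to vary like the others, edgeR called 1407 in the latter comparison. With 2 libraries a model, differences of the size seen for Cyp11a1 or Gata4 between TPMPik3r1 and TPMPik3ca did not pass the threshold. Leaving out TPK, which keeps TPM as the only unaltered model, took the higher genes to 3 of 20 in the mesenchymal transition list, to 1 each in the G2 and M phase, Myc-responsive and glycolysis lists, and to 0 in the VEGF, endothelial, ATF4, FOXO, ERK, gonadal, fibroblast and PI3K axis lists. Leaving out TPM instead took them to 0 in the glycolysis, endothelial, FOXO, fibroblast and PI3K axis lists, and to 9 in the Myc-responsive list. A fit without 1 model has fewer libraries, which makes a call harder. Without any 1 model the median log2 fold change was 0.90 to 0.94 (VEGF), 1.58 to 1.79 (endothelial), 0.20 to 0.62 (ATF4) and 0.17 to 0.56 (FOXO). It was -0.49 to 0.36 (ERK), 0.76 to 2.29 (gonadal), -0.55 to 1.07 (fibroblast) and 0.02 to 0.21 (PI3K axis). Why the counts fell was not tested.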

How the data were processed

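Per the labels and the study's methods, polyA RNA was sequenced on a NovaSeq as 150-bp paired ends. The authors aligned reads with STAR to mm10 and deposited raw read counts per gene for 8 libraries. The counting program, its annotation and the versions were not given in the sources used here, nor whether strand was used. Antisense and near-identical genes are therefore uncertain. The column TPMS was taken as TPM.

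Counts were filtered with filterByExpr, scaled by TMM and tested with the quasi-likelihood test of edgeR 4.0.16 (R 4.3.3) in 1 fit of 4 against 4 libraries, with Benjamini-Hochberg adjustment over 14677 genes. Fold changes are the altered minus the unaltered side on a log2 scale. The procedure was tested on simulated data with 200 changed genes, of which it recovered 58%, and it called 7 unchanged genes. It recovered 0% of 2-fold, 51% of 4-fold, 85.1% of 16-fold and 98% of 64-fold changes. The simulation changed far fewer genes than the 2623 called in the data, where 402 called genes had an absolute log2 fold change under 1. Its libraries were drawn independently, with no effect shared by the libraries of a model. These shares therefore do not carry over to the data, and say nothing of false calls among libraries that share a model. A gene that was not called may still differ between the sides.

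The members and the gene lists were chosen with earlier results of these data known. The shares called in a list therefore describe these data and are no independent support. Genes named by rule were the 12 with the widest gap in each direction, up to 4 members of each list by smallest p, and Pik3ca, Pik3r1, Myc, Trp53 and Trp63. Akr1c18, Akt1, Atf4, B2m, Cat, Ccne1, Cdh5, Cdt1, Dlk1, Dusp4, Dusp5, Egr1, Epha4, Errfi1, Esr1, Fap, H2-D1, H2-K1, Hoxa9, Irf1, Irf7, Krt19, Lcn2, Ltf, Mcm7, Meg3, Msln, Mtor, Nlrc5, Nop58, Pcna, Psmb8, Rfc3, S100a8, Slbp, Tap1, Tap2, Vegfa, Vwf and Xbp1 were chosen after their values were seen. Alternatives were other scalings, filters, thresholds, DESeq2 1.42.0, a term for each model, a replicate block, leaving out each library or model, and, chosen after seeing the data, the neutrophil sum without Ltf. Not every engineered gene is covered in these results.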

Additional observations from a re-analysis of the deposited data

Results flagged for a closer look

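Each side's 4 libraries were checked for a library far from the others, by Dixon's test on log2(CPM + 0.5), for the 97 genes named by rule. It marked 14 of 191 groups whose values were not all 0, and chance marks about 1 in 20.

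Among the altered libraries, TPMPik3ca replicate 1 held the highest level of Krt14, at 5.53 CPM beside 1.24 CPM or less, of Krt17, at 0.628 CPM, of Ckmt1, at 0.126 CPM, and of Dsg3 and Sprr2d, at 0.0628 CPM each, a single count. TPMPik3ca replicate 2 held the highest of Krt5, at 0.916 CPM, and of Erbb3, at 2.40 CPM, and the lowest of Cited2, at 101 CPM. Grb10 was lowest in TPMPik3r1 replicate 1, at 254 CPM beside 881 CPM or more.

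Among the unaltered libraries, Krt5 was lowest in TPM replicate 2, at 1281 CPM beside 5477 CPM or more, and Muc4 highest in TPK replicate 2, at 1292 CPM beside 287 CPM or less. Fign was highest in TPK replicate 1, at 1.52 CPM. Mki67 and Dusp7 were lowest in TPK replicate 2, at 135 and 59.3 CPM.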

How the results depend on the processing

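Scaling, the filter on low counts, a term for each model and the threshold of the study's methods left the numbers of called genes within 1.5 times of 1036 higher and 1587 lower. DESeq2 called 2042 higher. Leaving out TPK gave 107 higher and 670 lower, leaving out TPM 325 and 987, and leaving out TPMPik3ca 599 higher. Leaving out 1 library gave 449 to 1641 higher genes and 1095 to 2241 lower. The higher count was 449 without TPM replicate 1, 458 without TPK replicate 2, 487 without TPK replicate 1, 529 without TPMPik3r1 replicate 2 and 1641 without TPMPik3r1 replicate 1. The cause was not tested.

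Of separated genes, 188 above and 927 below had a gap of at least 2-fold. Fewer libraries make separation easier by construction. Without 1 library 1744 to 2579 genes were above and 2346 to 3217 below, the former being 2579 without TPMPik3r1 replicate 1. Those above numbered 2512 without TPK, 3041 without TPM, 2689 without TPMPik3ca and 3162 without TPMPik3r1, and those below 3354 without TPM, 3436 without TPMPik3ca and 3816 without TPMPik3r1. Within a side, DESeq2 called 215 genes between TPM and TPK and 712 between TPMPik3r1 and TPMPik3ca, and edgeR without 1 library 0 to 1407 in the latter. The cause was not tested.

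Same-numbered replicates did not deviate together, with correlations of -0.0723 to -0.0077 over 6 pairs of models, so the numbers are not a pairing. The replicate block gave 730 higher and 1384 lower genes.

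Of 94 called genes among the 97 named by rule, 45 passed the threshold under all settings tried and none changed sign. Leaving out 1 library ended the call for 17 of them and leaving out 1 model for 49. Myc, not called, had log2 fold changes of -0.15 without TPK, -0.37 without TPMPik3ca and -0.57 to 1.72 without 1 library, and Trp53, not called, one of 0.68 without TPM. Of the 2623 called genes, 402 had an absolute log2 fold change under 1.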

Other observations

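A list of 22 imprinted genes, expressed from 1 parental allele and often active in the fetus, was written after the values had been seen, so its counts support nothing. Of 18 tested, 7 were higher (38.9%, beside 7.06% of all genes) and none lower. Grb10, an adaptor that restrains insulin receptor signaling, was at 42.5 and 12.7 CPM in TPK, 95.2 and 107 CPM in TPM, 1094 and 909 CPM in TPMPik3ca and 254 and 881 CPM in TPMPik3r1 (log2 fold change 3.61 ± 0.72 (SE), adjusted p = 0.0121). Dlk1, a ligand-like membrane protein of fetal tissue, was at 0.225 and 0.459 CPM in TPK, 6.59 and 14 CPM in TPM, 317 and 79 CPM in TPMPik3ca and 63.3 and 561 CPM in TPMPik3r1 (log2 fold change 5.58 ± 1.39 (SE), adjusted p = 0.0278). Peg3, a zinc finger gene, was at 1.01 and 2.43 CPM in TPK, 1.75 and 0.915 CPM in TPM, 127 and 25.8 CPM in TPMPik3ca and 0.776 and 64.2 CPM in TPMPik3r1 (log2 fold change 5.16 ± 1.24 (SE), adjusted p = 0.0242), with TPMPik3r1 replicate 1 below every other library. Igf2r, the receptor that clears IGF2, was at 119.8 to 179.6 CPM in the unaltered and 259 to 454 CPM in the altered libraries (log2 fold change 1.23 ± 0.23 (SE), adjusted p = 0.00878), and Meg3, a noncoding RNA of the Dlk1 region, overlapped between the sides, at 30.7 to 86.1 CPM in the unaltered and 10.2 to 101 CPM in the altered libraries (adjusted p = 0.918). The number of higher genes was 3 without TPK replicate 2, TPM replicate 1 or TPMPik3ca replicate 1, 4 without TPK replicate 1 and 11 without TPMPik3r1 replicate 1, and the call for Peg3 was lost without TPK replicate 1, TPK replicate 2, TPM replicate 1, TPM replicate 2, TPMPik3ca replicate 1 or TPMPik3r1 replicate 2 (adjusted p = 0.0521 to 0.0741).

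By chromosome, the share of tested genes that were higher lay between 3.49% and 10.1% on the autosomes and was 13.7% on the X chromosome, where 62 of 454 genes were higher and 23 lower. Rragb, with 8 counts over the unaltered side, is one of these genes. No test of this difference was run.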
